A study of Mus musculus with 6 samples.

Results

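This account covers 9 long non-coding RNAs of mouse marrow progenitors, namely the nuclear RNAs Malat1 and Neat1 and the small nucleolar RNA host genes Gas5, Snhg1, Snhg3, Snhg5, Snhg6, Snhg8 and Snhg12. They were taken by gene name from a deposited table of 18491 genes, where each stood on 1 row, and all 9 passed the filter on low counts that left 15474 genes for testing. The libraries were made from bone marrow cells sorted as haematopoietic stem and progenitor cells 8 months after injection of poly(I:C), which mimics viral double-stranded RNA and so switches on Mx1-cre. There were 3 KO libraries, in which the receptor gene Robo1 was to be deleted by that recombinase, and 3 WT libraries. The descriptions give these groups, while titles and treatment fields call the same libraries ROBO1 shRNA and shRNA control, and the treatment given for KO replicates 1, 2 and 3 is knockdown of ROBO1, of ROBO2 and of ROBO3. Mx1-cre answers to interferon in many cell types, and the labels do not say whether WT mice carried it or whether each library was a separate animal, so p-values rest on a spread between libraries that may be technical only.

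A small nucleolar RNA (snoRNA) host gene carries snoRNAs in its introns. Splicing frees them to guide chemical marks and cleavage on ribosomal RNA, and the spliced host transcript is mostly a short-lived remnant. Many such hosts begin with a tract of pyrimidines, the 5′ TOP element shared with ribosomal protein mRNAs, and are degraded through nonsense-mediated decay when ribosomes engage them. Malat1 is an abundant, largely unspliced RNA of nuclear speckles, and Neat1 is the scaffold of paraspeckles, nuclear bodies that hold RNA-binding proteins.

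Total counts ran from 42235077 to 57058267 in KO libraries and from 44578916 to 58106099 in WT libraries. The groups differed in composition, the 100 most abundant genes taking 59.7 to 60.8% of KO counts and 42.3 to 43.3% of WT counts. Values are therefore given both as CPM (counts scaled to a common library size) after TMM scaling, which allows for such a shift, and as CPM of total counts. Going from TMM to total counts moved the median log2 fold change of all tested genes by -1.13, to -1.22 in place of -0.09. A gene was called at an adjusted p under 0.05 in edgeR's quasi-likelihood test. The Robo1 transcript was not analysed here. The 12 stem and progenitor markers summed to 160 to 166 CPM in KO and 169 to 177 CPM in WT (TMM), with 0 called higher and 3 lower. With total counts they summed to 107 to 114 CPM in KO and 243 to 268 CPM in WT, with 0 higher and 11 lower. Of 12 neutrophil lineage markers 9 were called higher, and they summed to 268854 to 284834 CPM in KO and 86624 to 97014 CPM in WT with TMM, while with total counts 5 were higher and 4 lower (184180 to 188001 CPM in KO, 131380 to 139310 CPM in WT). Of 11 tested eosinophil, basophil and mast cell markers 7 were called higher with TMM (45132 to 50836 CPM in KO, 6017 to 7194 CPM in WT), and 5 higher and 4 lower with total counts (30918 to 33554 CPM in KO, 9126 to 10330 CPM in WT). Calls with TMM were 5 higher and 2 lower of 12 erythroid, 3 and 5 of 12 B lineage, 2 and 2 of 12 monocyte and dendritic, 1 and 1 of 8 tested T and NK, 1 and 2 of 8 megakaryocyte, and 0 and 0 of 3 tested stromal markers. With total counts the same lists gave 4 and 6, 2 and 8, 1 and 8, 0 and 6, 0 and 7, and 0 and 2. In bulk RNA fewer cells of a type and less RNA per cell cannot be told apart, and the part of these marker shifts in the results below was not tested.

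With TMM scaling 4 of the 9 RNAs rose in KO (Malat1, Gas5, Snhg5 and Snhg8), Neat1 fell, and Snhg1, Snhg3, Snhg6 and Snhg12 did not pass. Over all tested genes 17.2% were called higher and 14.4% lower. With total counts 0 were called higher and 7 lower, against 4.23% and 70.7% of all tested genes, so Neat1 alone of the 9 was called in the same direction under both scalings, as 14.4% of tested genes were called lower under both. The KO and WT libraries did not overlap for the same 5 RNAs with TMM, 4 above and 1 below, while 22.2% of tested genes lay wholly above and 24.4% wholly below. With total counts 7 of the 9 lay wholly below and 0 wholly above, beside 76.1% and 4.85% of tested genes. Gas5, Snhg5 and Snhg8 passed in opposite directions, up with TMM and down with total counts, and so did 7.61% of tested genes. All 2229 genes called lower with TMM were also lower with total counts, so a second lower call is not particular to any of them.

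**Figure D1:**
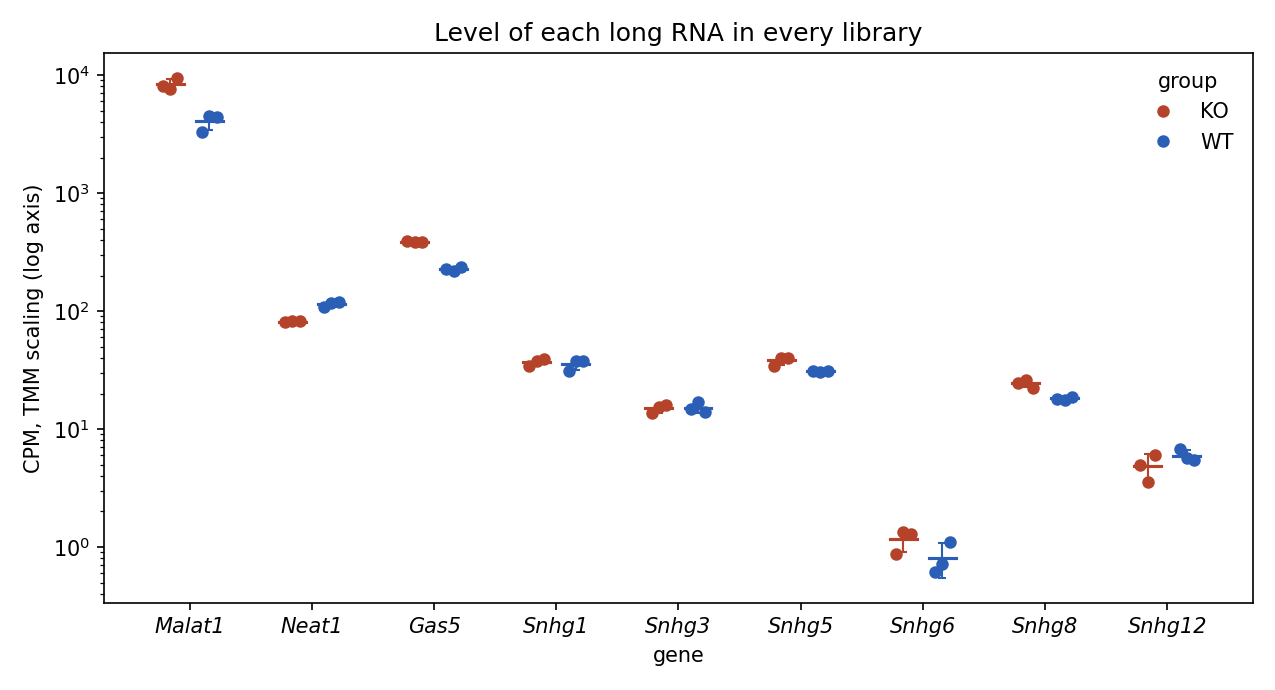
Level of each RNA in the 3 KO and 3 WT libraries, as CPM after TMM scaling on a log axis; points are libraries, bars the mean and whiskers the SD. Malat1, Gas5, Snhg5 and Snhg8 lie wholly higher in KO and Neat1 wholly lower, and with total counts only Neat1 of these 5 keeps its call and direction.

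Malat1 (ENSMUSG00000092341, chromosome 19, 5795690 to 5802672, minus strand, GRCm38, a single exonic block of 6983 bases) had by far the most counts of the 9. It took 0.529, 0.517 and 0.642% of all counts in KO replicates 1 to 3, and 0.473, 0.679 and 0.663% in WT replicates 1 to 3. WT replicate 1 was the lowest library and the groups overlapped on this scale. After TMM scaling Malat1 stood at 8017, 7551 and 9442 CPM in KO and at 3291, 4479 and 4447 CPM in WT, with every KO library above every WT library. That is 2.05-fold higher in KO (log2 1.03, SE 0.13, edgeR adjusted p = 0.000219). With total counts the log2 fold change was -0.10 (SE 0.13, edgeR adjusted p = 0.487), no call. Without WT replicate 1 it was -0.25, a call in the lower direction (edgeR adjusted p = 0.0342).

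Neat1 (ENSMUSG00000092274, chromosome 19, 5824708 to 5845478, minus strand) lies next to Malat1 and has a single exonic block of 20771 bases, which holds a short polyadenylated form and the long form that builds paraspeckles. Gene counts do not separate these forms. Neat1 fell in KO, to 80.8, 81.9 and 81.8 CPM, against 109, 117 and 119 CPM in WT (TMM). The KO libraries differed by about 1 CPM and all lay below the WT libraries. The fall was 1.41-fold (log2 -0.49, SE 0.06, edgeR adjusted p = 0.000347) with TMM and 3.09-fold (log2 -1.63, SE 0.07, edgeR adjusted p = 5.86e-07) with total counts. A correction for exon length and GC content brought it to -0.19, still a call (edgeR adjusted p = 0.0379).

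Since a scaling factor applies to a whole library, the ratio of 2 RNAs in the same library does not depend on it. There were 99.2, 92.2 and 115 Malat1 counts per Neat1 count in KO replicates 1 to 3, and 30.1, 38.4 and 37.5 in WT replicates 1 to 3. The log2 ratio of Neat1 to Malat1 averaged -6.67 ± 0.16 in KO and -5.14 ± 0.19 in WT (SD, n = 3 each), a gap of -1.53 that exceeds the spread within either group. Neat1 also fell against the summed counts of the 7 snoRNA hosts, at -2.64 ± 0.01 in KO and -1.54 ± 0.05 in WT (SD, n = 3 each). Malat1 against the same sum stood at 4.03 ± 0.17 in KO and 3.60 ± 0.24 in WT, with no overlap. Against Gas5 alone the groups overlapped, at 4.30 to 4.63 in KO and 3.86 to 4.36 in WT, as they did for Malat1 against Snhg6. Of the 36 pairs that 9 RNAs form, 21 had log2 ratios that did not overlap between groups, beside 46% of all pairs among the 13962 tested genes with a count in every library. Neat1 was in 7 such pairs of its 8, Malat1 and Gas5 in 6 each, and Snhg6, the RNA with the fewest counts, in 1. Pairs that share an RNA are not independent.

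**Figure D2:**
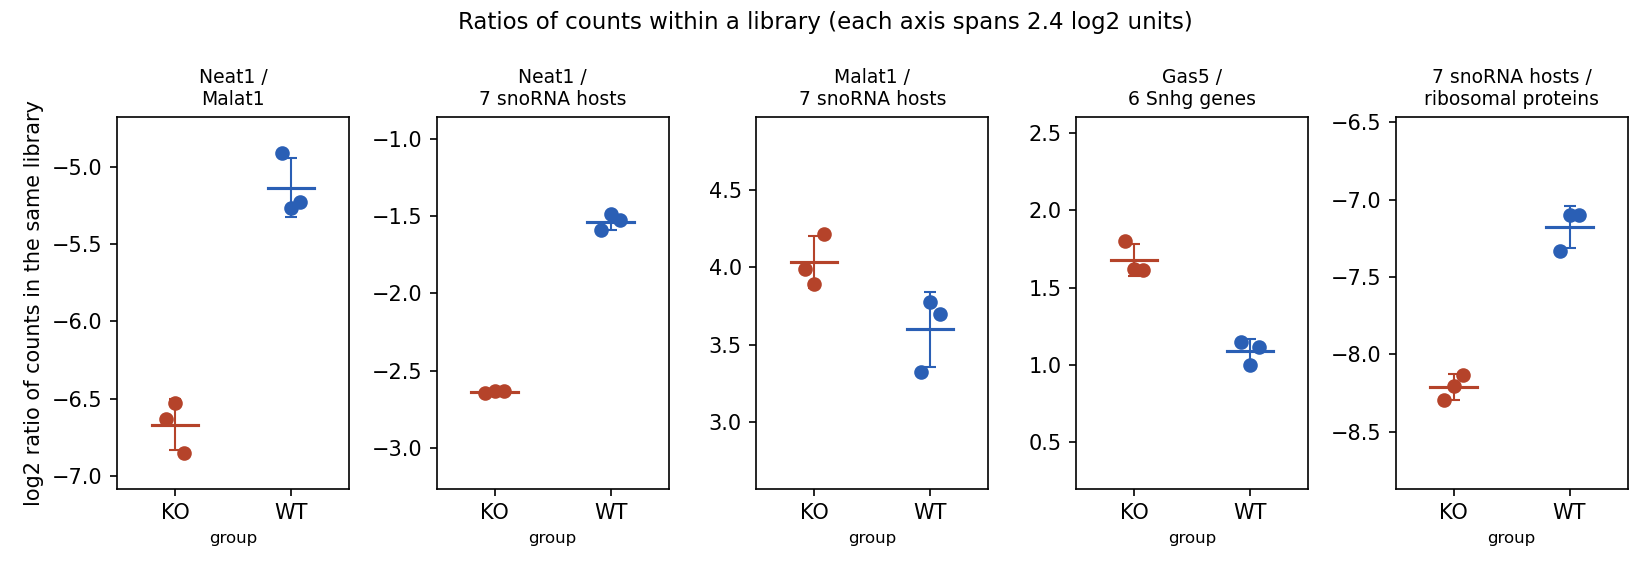
Log2 ratios of counts taken within each library, for KO and WT; points are libraries, bars the mean and whiskers the SD, and each panel spans the same number of log2 units. The KO points lie wholly below the WT points for Neat1 over Malat1 (means -6.67 and -5.14), and wholly above them for Gas5 over the 6 Snhg genes (1.68 and 1.09).

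Gas5 (growth arrest specific 5; ENSMUSG00000053332, chromosome 1, 161034422 to 161038539, plus strand) was the most abundant of the hosts. Its RNA is known to accumulate in growth-arrested cells and, in human cells, to bind the glucocorticoid receptor, and 10 annotated snoRNA genes lie within it. Its levels were 392, 383 and 382 CPM in KO and 227, 218 and 234 CPM in WT with TMM. The groups were well apart on that scale and Gas5 rose 1.70-fold (log2 0.77, SE 0.06, edgeR adjusted p = 7.99e-06). With total counts it stood at 259, 262 and 260 CPM in KO and 326, 331 and 349 CPM in WT, a call in the other direction (log2 -0.36, SE 0.06, edgeR adjusted p = 0.000223). Relative to the other hosts Gas5 was higher in KO under any scaling. It made up 77.7, 75.5 and 75.4% of the counts of the 7 hosts in KO and 68.9, 66.7 and 68.4% in WT. Its log2 ratio to the 6 Snhg genes was 1.68 ± 0.10 in KO and 1.09 ± 0.08 in WT (SD, n = 3 each), with no overlap.

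Snhg8 (chromosome 3, 123507552 to 123508404, minus strand; 1 annotated snoRNA gene, Snora24, inside it) had 24.7, 26.1 and 22.4 CPM in KO and 18.1, 17.7 and 18.8 CPM in WT with TMM. Its groups did not overlap and it rose 1.34-fold (log2 0.42, SE 0.09, edgeR adjusted p = 0.00649), but stood at -0.71 with total counts (edgeR adjusted p = 0.000121, lower). After the exon length and GC correction it was at -0.20 and no longer a call (edgeR adjusted p = 0.155). Snhg5 (chromosome 9, 88521050 to 88522929, minus strand), host of Snord50a and Snord50b, had 34.0, 40.3 and 40.3 CPM in KO and 31.1, 30.3 and 31.1 CPM in WT. KO replicate 1 lay closest to the WT libraries. It rose 1.24-fold (log2 0.31, SE 0.09, edgeR adjusted p = 0.0272), but stood at -0.82 with total counts (edgeR adjusted p = 4.97e-05, lower). The TMM call was lost when WT replicate 2, WT replicate 3, KO replicate 2 or KO replicate 3 was left out (the lowest of the 4 edgeR adjusted p-values was 0.0725, with log2 0.27 to 0.33).

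Snhg1 (chromosome 19, 8723475 to 8726443, plus strand) holds 8 annotated snoRNA genes. It had 34.5, 37.8 and 38.9 CPM in KO and 31.2, 37.6 and 37.5 CPM in WT, and the groups overlapped (log2 0.06, SE 0.10, edgeR adjusted p = 0.679). Snhg3 (chromosome 4, 132348014 to 132353686, minus strand), host of Snora73a and Snora73b, the U17 snoRNAs that act in 18S ribosomal RNA processing, had 13.6, 15.4 and 15.9 CPM in KO and 14.7, 16.9 and 14.0 CPM in WT. Its log2 fold change was -0.02 (SE 0.11, edgeR adjusted p = 0.911), and it became a lower call after the exon length and GC correction (log2 -0.47, edgeR adjusted p = 0.00646). Snhg12 (chromosome 4, 132308623 to 132311024, plus strand; 5 annotated snoRNA genes) had 4.99, 3.56 and 6.06 CPM in KO and 6.78, 5.68 and 5.42 CPM in WT (log2 -0.29, SE 0.20, edgeR adjusted p = 0.326). KO replicate 2 was the lowest library and KO replicate 3 lay among the WT libraries. With total counts Snhg1, Snhg3 and Snhg12 were called lower, at log2 -1.07, -1.15 and -1.43 (edgeR adjusted p = 2.12e-05, 2.34e-05 and 0.000138), beside the all-gene median of -1.22.

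Snhg6 (chromosome 1, 9941959 to 9944118, minus strand), host of Snord87, had the fewest counts of the 9, with 33, 47 and 37 counts in KO and 39, 59 and 96 counts in WT. Its TMM levels of 0.876, 1.33 and 1.29 CPM in KO and 0.609, 0.720 and 1.11 CPM in WT overlapped. The log2 fold change was 0.51 (SE 0.38, edgeR adjusted p = 0.361) with TMM and -0.62 (SE 0.40, edgeR adjusted p = 0.178) with total counts.

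**Figure D3:**
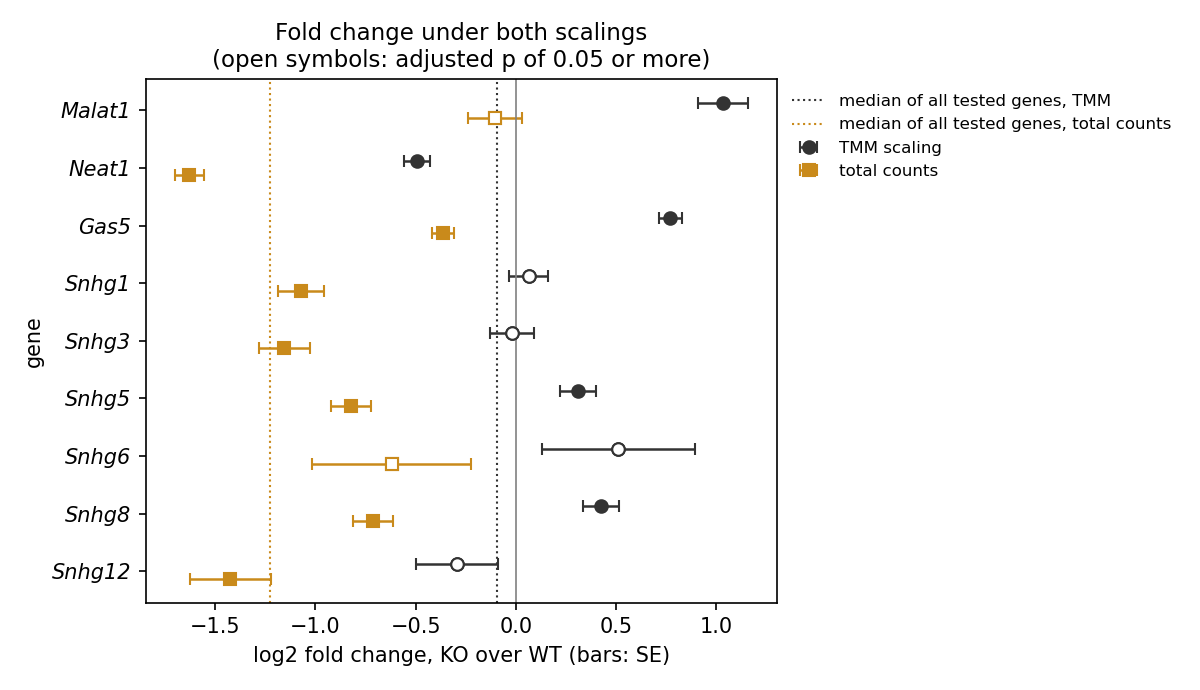
Log2 fold change of KO over WT for each RNA with TMM scaling (circles) and with total counts (squares), whiskers giving the SE; open symbols did not pass, and dotted lines mark the medians of all tested genes (-0.09 and -1.22). Neat1 lies left of 0 with filled symbols under both scalings, at -0.49 and -1.63, and Malat1 lies at 1.03 with TMM and at -0.10 with an open symbol for total counts.

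The authors' deposited DESeq2 table gives Malat1 a log2 fold change of 1.04 (SE 0.11), Gas5 0.77 (SE 0.07) and Neat1 -0.49 (SE 0.08). In the authors' deposited table Malat1 is classed as UP and the other 8 RNAs as STABLE. The class does not follow the adjusted p-value alone. DESeq2 adjusted p there was 5.41e-29 for Gas5, 3.68e-09 for Neat1, 0.00334 for Snhg8 and 0.0225 for Snhg5, all classed STABLE. For Snhg1, Snhg3, Snhg6 and Snhg12 it was 0.474 to 0.965.

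Levels between genes can be compared only per length. In the deposited length-scaled values, taken as FPKM, Malat1 stood first at 672 ± 83.2 FPKM in KO and 724 ± 146 FPKM in WT (SD, n = 3 each). Gas5 followed at 371 ± 3.02 FPKM in KO and 420 ± 13.7 FPKM in WT. Snhg1 and Snhg8 came next in KO, at 29.2 ± 1.92 and 29.1 ± 2.30 FPKM, and did not differ beyond their spread. In WT they stood at 54.0 ± 6.25 and 47.3 ± 1.90 FPKM, with Snhg3 at 42.7 ± 5.31 FPKM behind them. Neat1 was near the bottom at 2.33 ± 0.23 FPKM in KO and 6.86 ± 0.58 FPKM in WT, and only Snhg6 was lower in both groups. Its FPKM was taken over a length near that of its whole exonic block. The rank of Neat1 could differ if its short form gave most of the reads, which was not tested. The order of the 9 mean FPKM values was the same in KO and WT. Ranked instead by TMM CPM per kilobase of all annotated exon sequence, an alternative added after seeing the data, Malat1 and Gas5 again led, Snhg8 was the third and Snhg1 the sixth. On that scale Neat1 stood above Snhg12, at 3.92 and 2.03 in KO and at 5.53 and 2.48 in WT, the reverse of their order by FPKM.

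For genes with a single annotated transcript the FPKM equalled counts over exon length and library total, up to 1 constant per library, to within 1% for 98.5 to 99.0% of 620 to 877 genes. The same relation gives each gene the transcript length at which its FPKM and its counts agree. For Malat1 this length was 6977 to 6982 bases in KO and 6961 to 6982 in WT, close to its 6983 annotated bases. For Neat1 it was 17950 bases in KO replicate 2 and 20562 to 20769 in the other libraries. For Gas5, which has 25 annotated transcripts, it was 579 to 589 bases in KO and 648 to 672 in WT, with no overlap. For Snhg1, with 18 transcripts, it was 708 to 728 bases in KO and 780 to 841 in WT, again with no overlap. The other 5 hosts overlapped between groups. The share of all genes whose lengths do not overlap was not computed, so Gas5 and Snhg1 have no background here. How the deposited values assign reads to transcripts was not stated in those sources.

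The start of the transcript is where the 5′ TOP element of a host lies, so the RefSeq promoter windows (GRCm38.p6, 250 bases before to 50 after the annotated start) were searched there. Windows were found for 7 of the 9 RNAs, 8 windows in all since Gas5 has 2 starts; Neat1 and Snhg6 had none in the table. On the transcript's strand and within 10 bases of the start, the search took any of the 16 words of 5 letters that begin with C and continue in C or T only. Such a word stood in 4 of the 7 host windows, in 25.5% of all 32851 windows and in 48.5% of the 68 ribosomal protein windows. The 4 host windows are shown from 30 bases before the start to 30 bases from it on, 5′ to 3′, with the pyrimidine stretch in capitals.
Gas5, chr1:161035136-161035195, plus strand: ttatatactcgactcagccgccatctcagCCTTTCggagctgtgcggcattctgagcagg
Snhg3, chr4:132353657-132353716, minus strand: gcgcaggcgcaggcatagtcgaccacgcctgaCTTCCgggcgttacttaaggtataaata
Snhg8, chr3:123508307-123508366, minus strand: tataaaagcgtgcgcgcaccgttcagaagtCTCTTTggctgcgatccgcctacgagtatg
Snhg12, chr4:132308648-132308707, plus strand: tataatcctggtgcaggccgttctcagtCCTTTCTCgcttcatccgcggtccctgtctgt
Of these 4 genes Gas5 and Snhg8 rose with TMM, Snhg3 and Snhg12 did not pass, and all 4 were lower with total counts. The other Gas5 start, Snhg1, Snhg5 and Malat1 held no such word. The E-box CACGTG, searched on both strands of the whole window and holding purines, so none of the words searched at the start, was in 0 of the 8 windows and in 7.15% of all windows.

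Genes that share the members' biology were compared through lists, described by counts and medians beside all tested genes (17.2% higher, 14.4% lower and a median log2 fold change of -0.09 with TMM; 4.23%, 70.7% and -1.22 with total counts). The 7 hosts had a median of 0.31 with TMM and -0.82 with total counts. Of 12 other tested non-coding snoRNA host genes 1 rose and 0 fell, at a median of 0.09 with TMM and -1.05 with total counts, where 10 were called lower. The gene that rose was Zfas1, host of Snord12 family snoRNAs, at 13.2 ± 1.72 CPM in KO and 9.47 ± 0.25 CPM in WT (SD, n = 3 each; log2 0.48, SE 0.12, edgeR adjusted p = 0.0154), and it stood at -0.66 with total counts. Snhg16 (log2 -0.54) and Snhg4 (log2 2.28 on 1 of its 2 rows, with 2.61 ± 2.28 CPM in KO and 0.525 ± 0.645 CPM in WT) did not pass. The other Snhg4 row, at 6.15 ± 0.32 CPM in KO and 5.88 ± 0.24 CPM in WT (log2 0.06), did not pass either.

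Protein-coding genes that carry snoRNAs in their introns gave other counts. Of 35 tested, 30 rose and 2 fell with TMM, at a median of 1.34, and with total counts 16 passed as higher and 14 as lower (median 0.21). They include 21 ribosomal protein genes, of which 20 rose with TMM. Of the other 14, 10 rose and 1 fell, at a median of 0.55 with TMM and -0.58 with total counts. Rpl4, a large-subunit ribosomal protein gene, stood at 8925 ± 204 CPM in KO and 2394 ± 104 CPM in WT with TMM (SD, n = 3 each). Rpl23, of the same subunit, stood at 1123 ± 41.3 CPM in KO and 304 ± 16.6 CPM in WT, and the chaperone gene Hspa8 at 10531 ± 386 CPM in KO and 3430 ± 64.7 CPM in WT. These 3 were higher under both scalings. Among 81 ribosomal protein genes 80 rose and 1 fell with TMM, at a median of 1.55. The median was 0.42 with total counts, where 58 were called higher and 6 lower. Rps6, of the small subunit, was among the 3 of lowest p, at 3371 ± 40.7 CPM in KO and 1116 ± 24.4 CPM in WT with TMM (SD, n = 3 each), and was also higher with total counts. Values of single ribosomal protein genes are uncertain where reads also match their processed pseudogenes. Of 21 other translation genes of the 5′ TOP class 17 rose and 2 fell, at a median of 0.86 with TMM and -0.27 with total counts. They were led by Eef1a1, elongation factor 1 alpha (log2 1.93, SE 0.07), Naca (1.52, SE 0.06) and Npm1, nucleophosmin (1.26, SE 0.06), all also higher with total counts. Within each library the summed counts of the 7 non-coding hosts relative to those of the ribosomal protein genes were lower in KO, at a log2 ratio of -8.21 ± 0.08 against -7.18 ± 0.13 in WT (SD, n = 3 each). Gas5 on its own showed the same order, at -8.60 ± 0.06 in KO and -7.73 ± 0.12 in WT. Neither pair of groups overlapped, and both gaps hold under any scaling of libraries. They are not particular to the hosts. With TMM the median of all tested genes (-0.09) lay further below the ribosomal protein median (1.55) than that of the 7 hosts (0.31). The share of all genes whose ratio to the ribosomal protein sum does not overlap was not computed.

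**Figure D4:**
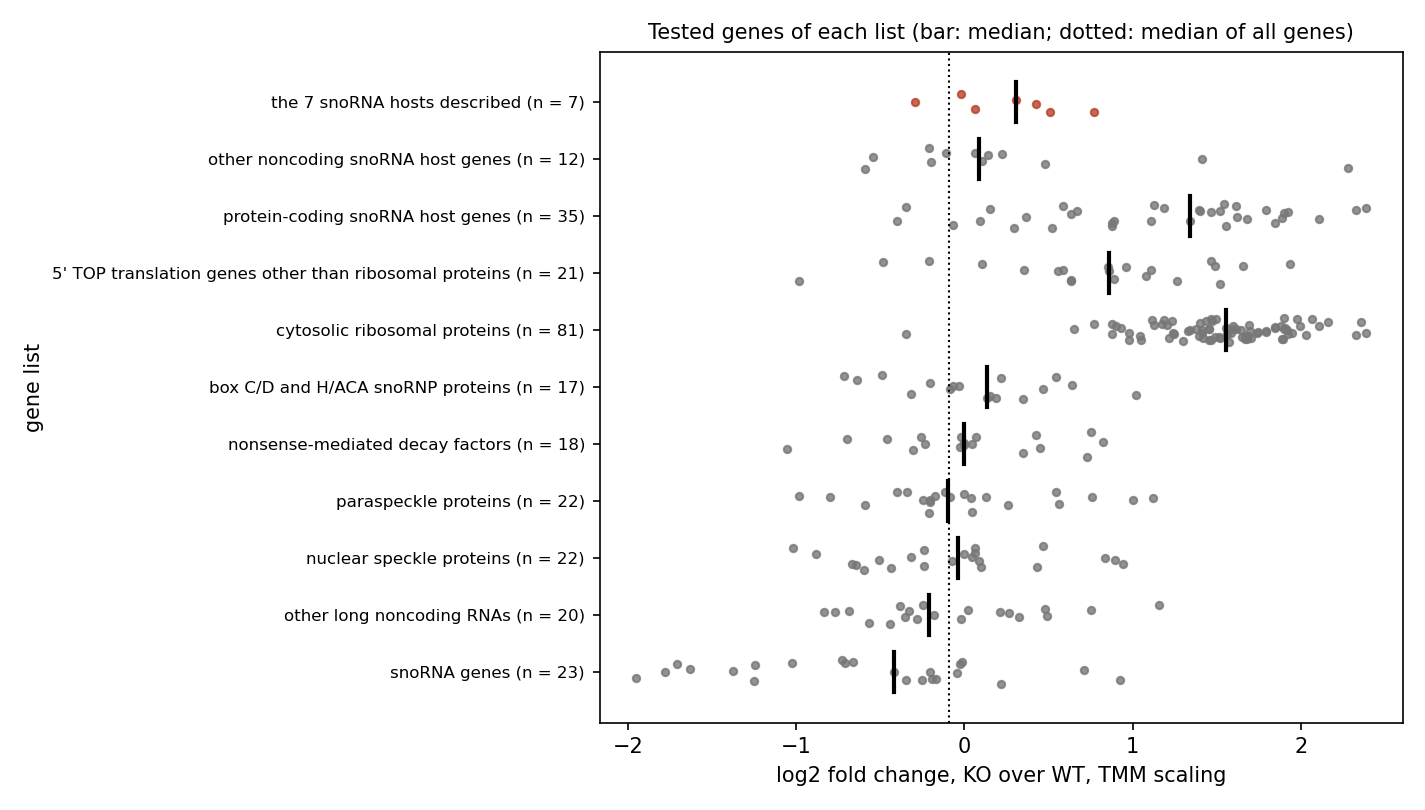
Log2 fold change of KO over WT with TMM scaling for the tested genes of each list, 1 point per gene, with the list median as a bar and the median of all tested genes (-0.09) dotted. The 7 hosts described centre on 0.31 and the ribosomal protein genes on 1.55; with total counts these medians are -0.82 and 0.42.

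The proteins that act with these RNAs moved in both directions with TMM. Of 17 proteins of the box C/D and H/ACA particles, which snoRNAs form to modify ribosomal RNA, 5 rose and 3 fell (median log2 0.13 with TMM and -1.002 with total counts). Nop10 (log2 1.02, SE 0.06) and Nhp2 (0.64, SE 0.06), both core H/ACA proteins, rose, as did the assembly ATPase gene Ruvbl2 (0.47, SE 0.07), but with total counts they stood at -0.12, -0.49 and -0.66. Of the other core H/ACA proteins, named after their values were seen, Gar1 fell (TMM log2 -0.64, SE 0.21, edgeR adjusted p = 0.0472; lower with total counts too) and Dkc1 stood at 0.13 and did not pass. Of the core box C/D proteins, also named after their values were seen, Fbl fell (TMM log2 -0.49, SE 0.09, edgeR adjusted p = 0.00309). Snu13 rose with TMM (0.55, SE 0.08), and Nop56 (0.15) and Nop58 (-0.07) did not pass. Each of these was called lower with total counts. With total counts 0 of the 17 were called higher and 16 lower. Of 18 nonsense-mediated decay factors 4 rose and 2 fell (median -0.0018 with TMM and -1.14 with total counts). The exon junction complex genes Eif4a3 (log2 0.75, SE 0.06), Rbm8a (0.73, SE 0.09) and Magoh (0.45, SE 0.08) were among those that rose. All 3 were called lower with total counts. Of the Upf genes, named after their values were seen, Upf2 (TMM log2 -0.70, SE 0.13) and Upf3a (-1.06, SE 0.24) fell. Upf1 (-0.31) and Upf3b (-0.03) did not pass with TMM. Casc3 (-0.46) and Magohb (0.07), also named after their values were seen, did not pass with TMM either. Upf1, Upf2, Upf3a, Upf3b, Casc3 and Magohb were all called lower with total counts.

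Of 22 paraspeckle protein genes 6 rose and 4 fell with TMM (median -0.10, and -1.23 with total counts). The RNA-binding protein genes Hnrnpk (log2 1.12, SE 0.08) and Hnrnpm (0.55, SE 0.07) rose with TMM but stood at -0.02 and -0.59 with total counts, and Cpsf7, a subunit of a cleavage factor for polyadenylation, fell under both scalings (TMM log2 -0.80, SE 0.11). Pspc1 and Sfpq, which bind Neat1 in paraspeckles, fell by 0.98 (SE 0.17) and 0.40 (SE 0.13) on the log2 scale, while Nono stood at 0.13 and did not pass, and with total counts all 3 were lower. These 3 were chosen after their values were seen. Of 22 nuclear speckle protein genes 4 rose and 10 fell, the fallers 45.5% of the list beside 14.4% of all tested genes, at a median of -0.04 with TMM and -1.17 with total counts. The list median thus lay close to that of all genes. The 3 of lowest p all rose, namely the splicing factor genes Srsf7 (log2 0.84, SE 0.06) and Srsf3 (0.94, SE 0.08) and the helicase gene Ddx39b (0.89, SE 0.07), though with total counts they stood at -0.29, -0.19 and -0.24. The other Srsf genes of the list were named after their values were seen. Srsf1 (TMM log2 -1.02, SE 0.14) and Srsf11 (-0.88, SE 0.08) fell and were lower with total counts too. Srsf2, Srsf4, Srsf5 and Srsf6 did not pass with TMM. With total counts 0 of the paraspeckle and 0 of the speckle genes were called higher, and 19 and 21 lower.

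Among 20 tested long non-coding RNAs outside the 2 families 0 rose and 3 fell, at a median of -0.21 with TMM and -1.35 with total counts. Kcnq1ot1, the antisense RNA of the imprinted Kcnq1 locus, stood at 23.0 ± 2.03 CPM in KO and 41.1 ± 0.54 CPM in WT (log2 -0.84, SE 0.09, edgeR adjusted p = 7.87e-05). Oip5os1 (log2 -0.77, SE 0.10) and Mir17hg, the primary transcript of the miR-17 cluster (-0.68, SE 0.20), also fell. All 3 were lower with total counts too, as was every gene called lower with TMM.

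The snoRNAs themselves were hardly covered. Of 29 annotated snoRNA genes inside the 7 hosts, with overlapping entries of Snord80 and of Snora16a counted separately, 1 had a row in the table. It was Snora73b inside Snhg3, with 10, 13 and 5 counts in KO and 21, 26 and 25 counts in WT (TMM log2 -0.20, SE 0.65, edgeR adjusted p = 0.849). Of 23 tested snoRNA genes, taken by name whether or not a host gene holds them, 0 rose and 3 fell with TMM (median -0.42, and -1.54 with total counts). They were Snora31 (log2 -1.95, SE 0.22), Snord13 (-1.63, SE 0.26) and Snord118, the U8 snoRNA (-1.25, SE 0.29), each at or below 3.94 ± 0.18 CPM in WT and all lower with total counts as well. Whether the library preparation retained RNAs of this size was not tested.

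The sources used here do not give the strand setting of the counting, so genes that overlap a member may share reads with it. Snhg3 overlaps Rcc1, which encodes the exchange factor of the GTPase Ran, on the same strand over 135 exonic bases, and the antisense gene Gm17300 over 705 exonic bases. Rcc1 (log2 0.62, SE 0.10) and Gm17300 (0.66, SE 0.13) both rose with TMM and were lower with total counts, whereas Snhg3 did not pass with TMM, and its separate value is uncertain. Gas5 overlaps Zbtb37 on the other strand, though with no shared exonic base, and Zbtb37 had 12 to 20 counts in KO and 40 to 83 in WT. Mcmdc2, which overlaps Snhg6 by 127 exonic bases on the other strand, had 0 to 9 counts in KO and 0 to 11 in WT.

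The values of nearby genes that share no sequence with a member were as follows. Slc3a2, the CD98 heavy chain gene that starts 106 bases from Snhg1 on the other strand, rose with TMM (log2 0.74, SE 0.06; -0.39 with total counts), while Snhg1 did not pass. Trnau1ap, whose product acts in selenocysteine incorporation and which ends 739 bases beyond Snhg12, fell to 25.6 ± 7.97 CPM in KO, against 57.3 ± 3.86 CPM in WT (SD, n = 3 each; log2 -1.16, SE 0.20, edgeR adjusted p = 0.00191; -2.29 with total counts, lower). Frmd8, upstream of Neat1 on the same strand, rose with TMM (log2 0.63, SE 0.09; -0.50 with total counts), and Frmd8os, 145 bases from the Neat1 start, had 0 to 9 counts in KO and 16 to 22 in WT and did not pass. Phactr4, near Snhg3, did not pass with TMM (log2 0.15, SE 0.31), and Prss12, near Snhg8, had too few counts to be tested.

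Genes with the profile most like a member's were found by the distance between centred log2 CPM values (TMM) over the 6 libraries. The search took in 4922 genes of at least 10 CPM on average. A small distance requires a similar fold change, so the fold changes below follow from the choice. For Malat1 they were Ssb (distance 0.272), Arf4 (0.299) and Cct8 (0.306). For Neat1 they were Katna1 (0.042), Gnpnat1 (0.048) and Pbrm1 (0.056), with log2 fold changes of -0.52, -0.52 and -0.51. For Gas5 they were Impdh2 (0.079), Ubl5 (0.083) and Farsa (0.086), with log2 fold changes of 0.78, 0.79 and 0.79. The closest Malat1 distances were larger than those of Neat1 and Gas5.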

How the data were processed

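RNA was measured by sequencing in 3 KO and 3 WT libraries, grouped by their descriptions. The deposited raw counts per gene were used as they stood. Per the submitters' processing notes, fastp 0.22.0, HISAT2 2.2.1, featureCounts 2.0.1 and DESeq2 1.32.0 were used on build mm10; options, strand setting and annotation are not given in the sources used here. The table also holds deposited length-scaled values without a unit, taken as FPKM because they equalled counts over exon length and library total for genes with a single transcript. Per the file headers, the authors' DESeq2 columns give the mean normalised signal, log2 fold change and its error, a score (fold change over its error), p-values and a class for each gene.

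Genes passing edgeR's filterByExpr were fitted with edgeR 4.0.16 (glmQLFit and glmQLFTest, R 4.3.3) on all 6 libraries, with TMM and with total counts, and p-values were adjusted by Benjamini-Hochberg over 15474 genes. The SE of a fold change is its size over the square root of F. Positions and exon lengths come from GENCODE vM21, which held 18470 of the 18491 gene IDs. The members and lists were chosen with earlier results of these data known. All members were named, the 3 genes of lowest p in each list, neighbours within 5000 bases that have counts in the table (1 is not reported here), and the 3 nearest profiles of Malat1, Neat1 and Gas5; exceptions are marked. Counts were simulated for KO against WT over 14719 genes, with 67 changed 1.5-fold, 67 changed 2-fold and 66 changed 4-fold. The fit called 26.9%, 58.2% and 93.9% of these, and 4.8% of calls were false. The share of false calls in the KO and WT libraries themselves, whose composition differed, was not tested. Alternatives were DESeq2 1.42.0 size factors and Wald test, upper quartile scaling, no filter, limma 3.58.1 on log2(FPKM + 0.1), a correction for exon length and GC content, a replicate block and leaving out each library.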

Additional observations from a re-analysis of the deposited data

How the results depend on the processing

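Neat1 kept its direction and call in the 12 alternatives that do not scale to the library total. All 2229 genes called lower with TMM were also lower with total counts, so its call there shows nothing particular to Neat1. Scaling to the library total moved the most: 655 genes were higher and 10937 lower with total counts, and 724 and 11282 with limma on FPKM, with 0 members higher and 7 lower in both. Log2 fold changes in these 2 settings, total counts before limma, turned to -0.10 and -0.092 for Malat1, -0.36 and -0.18 for Gas5, -1.07 and -0.88 for Snhg1, -0.82 and -0.80 for Snhg5, -0.62 and -0.55 for Snhg6, and -0.71 and -0.70 for Snhg8. Snhg3 (-1.15 and -1.14) and Snhg12 (-1.43 and -1.55) became calls. The exon length and GC correction left 3 members higher and 2 lower, with Snhg8 at -0.20 and Snhg3 at -0.47. Snhg3, near 0, turned to 0.0063 with DESeq2 size factors, to 0.0059 with the DESeq2 Wald test, to 0.070 without WT replicate 2 and to 0.04 without KO replicate 1; leaving out 1 library gave -0.068 to 0.070 for Snhg3 and -0.0064 (without WT replicate 1) to 0.12 for Snhg1. Leaving out 1 library in turn gave 2226 to 2542 genes higher and 1356 to 2142 lower, the lowest counts of lower genes being 1356 without WT replicate 2 and 1419 without WT replicate 3, with 3 to 4 members higher and 1 lower. With total counts, in an alternative added after seeing the data, it gave 569 to 671 genes higher, 10163 to 10819 lower, 0 members higher and 7 to 8 lower, the 8 without WT replicate 1, where Malat1 stood at -0.25. A replicate block gave 2467 genes higher, 1906 lower, 4 members higher and 1 lower, and changed no member's call; same-numbered libraries deviated together with r of 0.04, -0.01 and 0.05, so the numbers were not taken as pairs. List medians moved with total counts as given above. Except where a value shows it, the cause was not tested. Levels per kilobase from a deposited gene length were not run, since the table gives none. Snhg6 and the snoRNA genes had few counts.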
